A study of Mus musculus with 6 samples.

Results

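RUNX1 binding was examined at the genes that encode the RUNX transcription factors themselves, Runx1, Runx2 and Runx3, and at Cbfb, which encodes their shared partner. The data are RUNX1 chromatin immunoprecipitation sequencing (ChIP-seq) peaks from mouse granulosa cells, the somatic cells that surround the oocyte. A peak was taken when its summit lay inside the annotated gene or within 50 kb of either end, which gave 73 of the 51515 peaks in the 4 deposited lists. Of these 73, 60 had their summit inside one of the 4 genes. Mice of the CBA x C57BL/6 F1 cross, 21 days old, received 5 IU of eCG, a gonadotropin that drives follicle growth, and after 46 hours 5 IU of hCG, which acts in place of the ovulatory hormone surge. The groups were 2 libraries of pre-ovulatory cells at 0 h of hCG and 2 libraries of peri-ovulatory cells at 6 h, and both groups carried the eCG treatment. The labels give every sample the same treatment text, which ends at the 6 h collection, so the 0 h group rests on its title and time label. The labels do not say whether the 2 libraries of a group came from separate animals or how many animals were pooled, so the spread between them may be technical. Peak lists hold no expression values, so the cell type could not be checked against markers.

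RUNX proteins bind DNA through the Runt domain, which recognises the sequence TGTGGT or the closely related TGCGGT, and CBFB strengthens that binding without touching DNA itself. Each RUNX gene is known to be transcribed from a distal promoter (P1) and a proximal promoter (P2), which give proteins with different first residues. In the ovary, Runx1 and Runx2 are known as genes that the ovulatory signal induces in granulosa cells, Runx2 is otherwise best known for bone formation, and Runx3 for T cells and sensory neurons.

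Coordinates are those of mm10 (GRCm38), and start sites are those of the RefSeq promoter table for GRCm38.p6. Its windows run from 250 bases before to 50 bases after a start. The table held 6 windows for the 4 genes. Runx1, on the minus strand of chromosome 16 (92601466 to 92826074), had a distal start at 92826074 and a proximal start at 92697329. Runx2, on the minus strand of chromosome 17 (44495987 to 44814797), had 1 start at 44814627. Runx3, on the plus strand of chromosome 4 (135120645 to 135177990), had a distal start at 135120645 and a proximal start at 135152545. Cbfb, on the plus strand of chromosome 8 (105170674 to 105217989), had 1 start at 105170674.

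The windows at the distal starts of Runx1 and Runx3 and at the single listed start of Runx2 share a tandem pair of RUNX motifs. It is shown because RUNX1 summits lay beside it at Runx1 and Runx2 but not at Runx3. The capitals mark 2 copies of AACCACA, which is TGTGGTT read on the other strand, with any 1 base between them, and each 30-base stretch reads 5′ to 3′ on the strand of its gene.
Runx1 (chr16:92826025-92826054, minus strand): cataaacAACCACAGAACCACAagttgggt
Runx2 (chr17:44814583-44814612, minus strand): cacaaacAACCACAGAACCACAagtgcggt
Runx3 (chr4:135120503-135120532, plus strand): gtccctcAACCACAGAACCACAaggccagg

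Searched on both strands, the tandem motif was found in 5 of 32851 promoter windows, or 0.0152%. They were the windows of Runx1, Runx2 and Runx3, that of the non-coding gene Gm16225, which overlaps the Runx3 window, and that of the olfactory receptor gene Olfr24. The longest run shared by the 3 Runx windows was 18 bases, and Runx1 and Runx2 shared 22 bases. The single motif TGTGGT was present in 16.8% of all windows, TGTGGTT, which contains it, in 5.27%, and TGCGGT in 6.45%. The element begins 27 bases after the start in Runx1, 22 bases after it in Runx2 and 135 bases before it in Runx3, position -135.

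The other windows of the family had none of these motifs. The proximal windows of Runx1 and Runx3 and the Cbfb window held no TGTGGT and no TGCGGT, while the Runx2 window held 3 TGTGGT and 1 TGCGGT. They differed from the distal windows in CpG content. The Runx1 and Runx2 windows with the tandem motif held 2 CpG each, an observed to expected ratio of 0.137 and 0.143, and the distal Runx3 window held 8 CpG, a ratio of 0.264. The proximal Runx1 window held 35 CpG, the proximal Runx3 window 45 and the Cbfb window 30, with ratios of 1.01, 1.01 and 0.987. The median over all windows was 7 CpG and a ratio of 0.384. The 250 bases before each Runx1 start show this difference, with each CpG in capitals.
Runx1 distal start (chr16:92826075-92826324, minus strand): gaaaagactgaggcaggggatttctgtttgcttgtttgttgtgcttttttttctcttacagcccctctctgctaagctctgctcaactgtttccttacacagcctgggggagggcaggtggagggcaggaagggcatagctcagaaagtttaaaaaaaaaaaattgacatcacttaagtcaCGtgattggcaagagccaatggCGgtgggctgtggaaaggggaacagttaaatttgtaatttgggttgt
Runx1 proximal start (chr16:92697330-92697579, minus strand): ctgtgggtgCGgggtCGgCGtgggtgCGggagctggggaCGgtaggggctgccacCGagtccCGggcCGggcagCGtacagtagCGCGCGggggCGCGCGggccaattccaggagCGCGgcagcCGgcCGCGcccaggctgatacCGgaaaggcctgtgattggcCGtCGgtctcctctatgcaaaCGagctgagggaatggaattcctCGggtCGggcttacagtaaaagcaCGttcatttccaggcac

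The 4 lists differ in length far more than in background, and the number of reads behind each is not given in the sources used here. They held 948 and 3135 peaks at 0 h and 18761 and 28671 at 6 h, and the genome-wide background recovered from the deposited fold and p-value was between 2.13 and 2.77 reads in the 4 libraries. This background served as the scale for levels: the read pileup at a summit is given below in multiples of the background of its own library. A peak at background needed at least 18 and 17 reads in 0 h replicates 1 and 2, or 6.5 and 6.41 times background, to reach the p-value limit of the lists, so lower levels of binding were not detectable. The part that list length has in the differences between time points below was not tested, beyond the lists of equal length. In whole cell samples, fewer cells with a bound site and less binding per cell cannot be told apart.

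All 4 genes had more peaks after hCG. Runx1 had peaks before hCG in both libraries, Runx2 had 1 in a single library, and Runx3 and Cbfb had none. Runx1 had 3 peaks in 0 h replicate 1 and 7 in replicate 2, then 13 and 11 in the 6 h libraries. Around Runx2 there were 0 and 1 peaks at 0 h and 13 and 15 at 6 h. Around Runx3 there were 0 and 0 at 0 h and 2 and 2 at 6 h, and around Cbfb 0 and 0 at 0 h and 3 and 3 at 6 h. For each gene the 6 h libraries lay above the 0 h libraries without overlap, as they did for 64.7% of the 21887 protein-coding genes. At Runx1 the groups overlapped inside the gene, where the counts were 3, 7, 9 and 7, and flanks of 10 kb gave the same difference as the gene alone, 0.66 in log2 of the number plus 1 (exact two-sided permutation test, p = 0.667).

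At least 1 peak was found around 1 and 2 of the 4 genes in 0 h replicates 1 and 2, where 9.43% and 28.2% of protein-coding genes had one. In each 6 h library all 4 genes had one, where 69.3% and 76.1% of protein-coding genes did.

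Together the windows held 5.5 ± 3.54 peaks before hCG and 31 ± 0 after it (SD, n = 2 per group), a difference of 2.42 ± 0.58 (SE) in log2 of the number plus 1. The exact two-sided permutation test gave p = 0.333, the smallest that 2 against 2 libraries can give. The difference was 1.83 without 0 h replicate 1 and 3.0 without 0 h replicate 2. For single genes it was 1.2 ± 0.51 at Runx1, 3.40 ± 0.51 at Runx2, 1.58 at Runx3 and 2.00 at Cbfb, each with the same exact permutation p of 0.333, which Benjamini-Hochberg adjustment over these 5 tests leaves at 0.333. At Runx1 the difference was 0.70 without 0 h replicate 1 and 1.70 without 0 h replicate 2. At Cbfb it was 1.0 with the gene alone or with 10 kb flanks, and 1.29 with peaks of a −log10 q of at least 20. The SE of the last pair, Runx3 and Cbfb, is 0 because their replicates had equal counts.

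Measured against the length of the lists, the order of the time points was the opposite for the 4 windows together and for Runx1, but not for the other genes. The 4 windows held 3.16 and 2.55 of every 1000 peaks at 0 h and 1.65 and 1.08 at 6 h. The mean share was 2.86 ± 0.43 per 1000 before hCG and 1.37 ± 0.40 after it (SD, n = 2 per group), a log2 difference of -1.09 (exact two-sided permutation test, p = 0.333). All of the 0 h share except 1 peak came from Runx1, which had 3.16 and 2.23 peaks per 1000 at 0 h and 0.693 and 0.384 at 6 h. Runx2 had 0 and 0.319 per 1000 at 0 h and 0.693 and 0.523 at 6 h. Runx3 and Cbfb had 0 in both 0 h libraries, with 0.107 and 0.0698 at 6 h for Runx3 and 0.160 and 0.105 for Cbfb. These shares count single peaks, and some regions were split. In 0 h replicate 2 the proximal Runx1 start held 4 peaks and a region deep inside Runx1 held 2. Each 6 h library had 1 peak in each of these regions. In 6 h replicate 1 the distal Runx1 start and a region inside Runx2 held 2 peaks each. How far the order of the time points depends on split peaks was not tested.

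**Figure D1:**
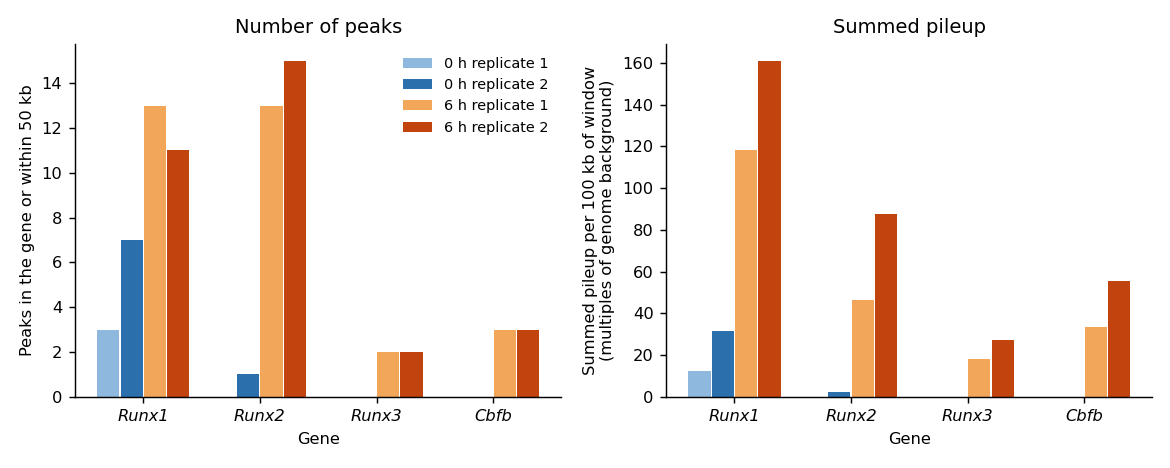
Left, the number of peaks with a summit in each gene or within 50 kb of it, 1 bar per library. Right, the pileup summed over those peaks per 100 kb of window, in multiples of the genome background. Runx1 alone has bars in both 0 h libraries, and the 6 h bars of every gene are the higher ones.

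With the same number of peaks per library, the 948 with the lowest p, only Runx1 kept peaks. Each of the 4 lists then held 3 peaks at Runx1 and 0 at Runx2, Runx3 and Cbfb, so the difference between time points was 0 (exact permutation p = 1). In every library the 3 peaks fell on the same 3 sites of Runx1, described next, although at the proximal start the peaks of the 0 h libraries did not overlap each other. At Runx2, Runx3 and Cbfb a count of 0 says little. In 0 h replicate 1, whose whole list is 948 peaks, only 9.43% of protein-coding genes had a peak.

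Peaks that shared at least 1 bp across libraries were merged into sites. The 73 peaks made 34 sites, of which 13 were at Runx1, 16 at Runx2, 2 at Runx3 and 3 at Cbfb. Only 3 sites had a peak in all 4 libraries, and all 3 were inside Runx1. A further 22 sites had a peak in both 6 h libraries and no 0 h library, 8 in a single 6 h library, and 1, at the Runx2 start, in both 6 h libraries and 0 h replicate 2. Of the 4 sites with a 0 h peak, 0 lacked a peak at 6 h, and of the 3032 such sites of the genome 2.44% did. Over the genome, 2.72% of the 29186 sites had a peak in all 4 libraries and 49.2% in both 6 h libraries and no 0 h library. At least 3 sites with a peak in all 4 libraries were found around 37 protein-coding genes, or 0.169%, Runx1 included. The Runx1 window is long, 324.6 kb against a median of 117.2 kb for protein-coding genes. Of the 37 genes, 36 had a window no longer than that of Runx1. The part of window length in this share was not tested.

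The first Runx1 site lay at the distal start (chr16:92824586-92826554), with its summits beside the tandem motif. The pileup at its summit was 13.0 and 19.6 times background in the 0 h libraries and 68.1 and 109 times in the 6 h libraries, from 36, 52, 188 and 232 reads. Both 6 h values exceed both 0 h values. The log2 difference was 2.43 ± 0.45 (SE), a ratio of 5.39 (exact two-sided permutation test, p = 0.333, n = 2 per group). The 4 summits lay within 22 bp of each other and 34, 20, 12 and 30 bp from the centre of the tandem motif, in the same order of libraries.

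The second lay at the proximal start (chr16:92695206-92699033), which has no RUNX motif in its promoter window. Its pileup was 8.66 and 13.9 times background at 0 h and 73.9 and 98.4 times at 6 h. The 0 h values were taken from the highest peak of each library, and these had summits 708 bp apart. The log2 difference was 2.96 ± 0.40 (SE), a ratio of 7.76 (exact two-sided permutation test, p = 0.333, n = 2 per group). It was the broadest of the family. Its 6 h peaks were 3723 and 3747 bp wide, the 8th widest of replicate 1 and the 9th widest of replicate 2. At 0 h it was represented by 1 peak of 200 bp in replicate 1 and by 4 separate peaks in replicate 2. Its 6 h summits lay 579 and 584 bp downstream of the proximal start, and the highest of the 0 h replicate 2 peaks 85 bp upstream of it, at position -85.

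The remaining site lay deep inside Runx1 (chr16:92633680-92635802), 62.3 kb downstream of the proximal start and 33.5 kb from the end of the gene. No listed start is near it, and exons and introns were not separated. It had the highest pileup of all 34 sites in each of the 4 libraries, 18.0 and 23.0 times background at 0 h and 85.5 and 121 times at 6 h. The log2 difference was 2.32 ± 0.31 (SE), a ratio of 4.99 (exact two-sided permutation test, p = 0.333, n = 2 per group). By fold enrichment it was the 72nd and 83rd peak of the 0 h lists and the 6th and 12th of the 6 h lists. Its summits in the 4 libraries lay within 47 bp of each other.

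Over all 795 sites with a peak in every library, the median log2 difference was 1.85, a ratio of 3.62, and 91.3% had both 6 h values above both 0 h values. The 3 Runx1 sites, all of this kind, stood at percentiles 83.9 (distal start), 97.9 (proximal start) and 76.9 (the site inside the gene) of that distribution. Sites that had to be called at 0 h are a selection, and these percentiles describe the sites without a test.

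**Figure D2:**
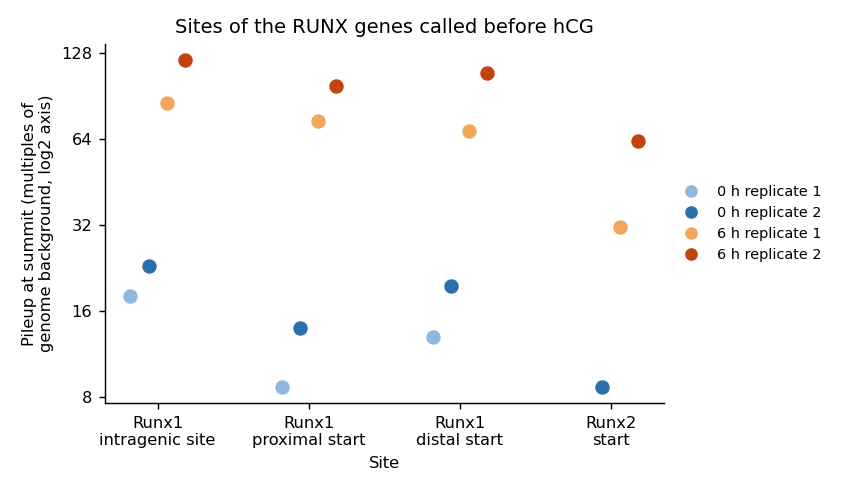
Pileup at the summit in multiples of the genome background (log2 axis) for the 4 sites with any 0 h peak, 1 point per library. At each site the 6 h points lie above the 0 h points, and the Runx2 start has a point from 0 h replicate 2 only.

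Another 10 Runx1 sites were found at 6 h alone, and all were weaker than the 3 above. The 7 seen in both 6 h libraries had 14.9 to 24.3 times background in replicate 1 (median 16.7) and 18.3 to 32.3 in replicate 2 (median 27.7). Close to the proximal start, sites 6.48 and 12.8 kb downstream of it had 17.0 and 27.7, and 16.7 and 29.1 times background in replicates 1 and 2. Upstream of the gene a single site lay 16.3 kb before the distal start, with 15.9 and 28.1. Beyond the other end of the gene 3 sites were nearer to an end of another gene, 4177 and 1378 bp from the non-coding gene Gm30224 and 13299 bp from Clic6.

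**Figure D3:**
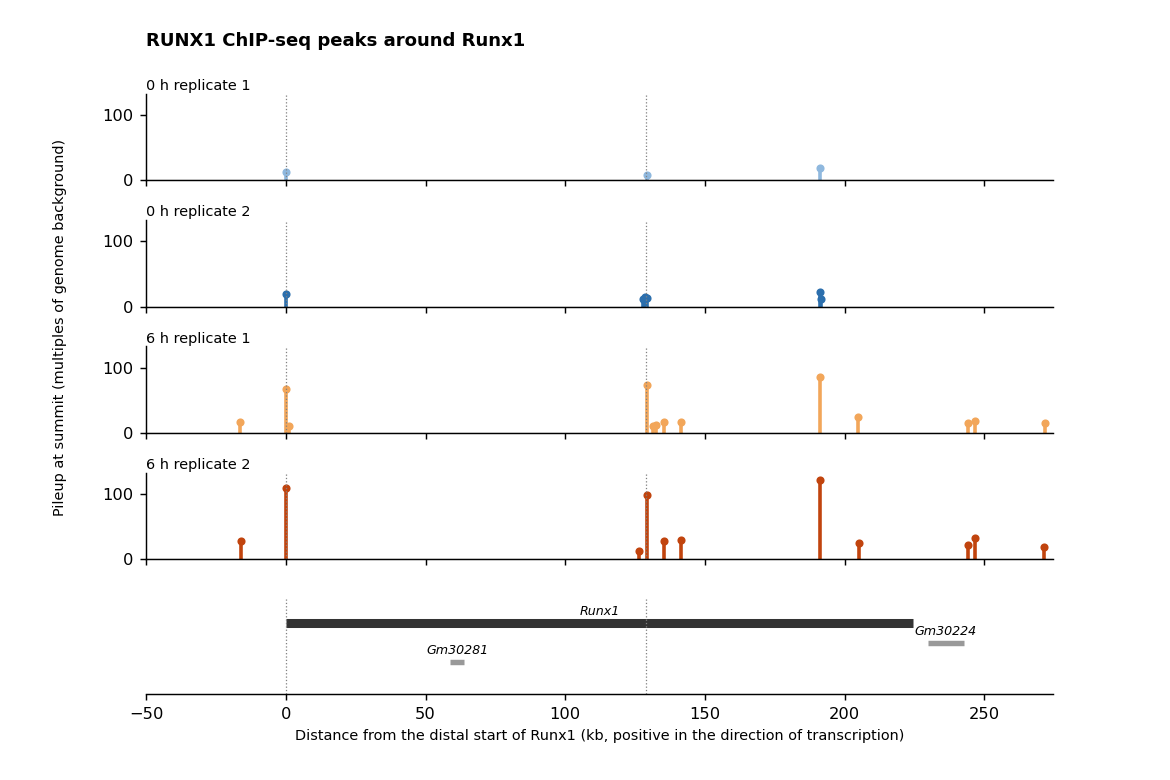
Peaks around Runx1 by library, placed by the distance of the summit from the distal start in kb, with height the pileup in multiples of the genome background. Dotted lines mark the distal and proximal starts, and bars below show annotated genes over 1 kb. The same 3 positions are occupied in all 4 libraries and are the tallest at 6 h.

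Around Runx2, 28 of the 29 peaks came from the 6 h libraries, as did 92.1% of all peaks in the 4 lists. Inside the gene there were 13 and 14 in 6 h replicates 1 and 2. Its strongest site by the mean of the 6 h libraries lay at the start (chr17:44814019-44815189), again beside the tandem motif. No peak was called there in 0 h replicate 1. The pileup was 8.67 times background in 0 h replicate 2, from 23 reads, and 31.5 and 63.3 times in 6 h replicates 1 and 2, from 87 and 135 reads. The 0 h peak was thus near the limit of the list, at percentile 4.55 of fold, and the 6 h peaks stood at percentiles 89.6 and 90.9. The summits of the 3 libraries lay 94, 23 and 49 bp from the centre of the tandem motif. With 1 value at 0 h no test was made.

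The 10 Runx2 sites in both 6 h libraries without a 0 h peak had 9.78 to 19.6 times background in replicate 1 and 15.9 to 38.9 in replicate 2. All 10 were inside the gene. A group of 3 neighbouring sites lay 77.2, 78.6 and 79.2 kb downstream of the listed start, at 13.8, 15.6 and 12.3 times background in replicate 1 and 16.4, 19.7 and 15.9 in replicate 2. The promoter table held only 1 Runx2 start, so whether any of these sites lies at another promoter of the gene was not tested. The site farthest from the start, at 267.7 kb, had 9.78 and 38.9, the widest gap between the 6 h replicates of any site here, 3.98 times. Over the 26 sites found in both 6 h libraries the value in replicate 2 was the higher in each case, by a median of 1.56 times, and over all 17190 such sites of the genome the median was 1.61.

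Runx2 overlaps Supt3, which encodes a subunit of a histone acetyltransferase complex and runs the opposite way. The site 37.6 kb downstream of the Runx2 start (chr17:44776871-44777787) lay over the Supt3 promoter window, with summits 90 and 116 bp before the Supt3 start (positions -90 and -116). It had 15.9 and 22.5 times background at 6 h and no 0 h peak. Of the 29 peaks around Runx2, 15 were nearer to an end of Supt3 than to one of Runx2 or another gene, so a position in this window does not say which gene a site serves.

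**Figure D4:**
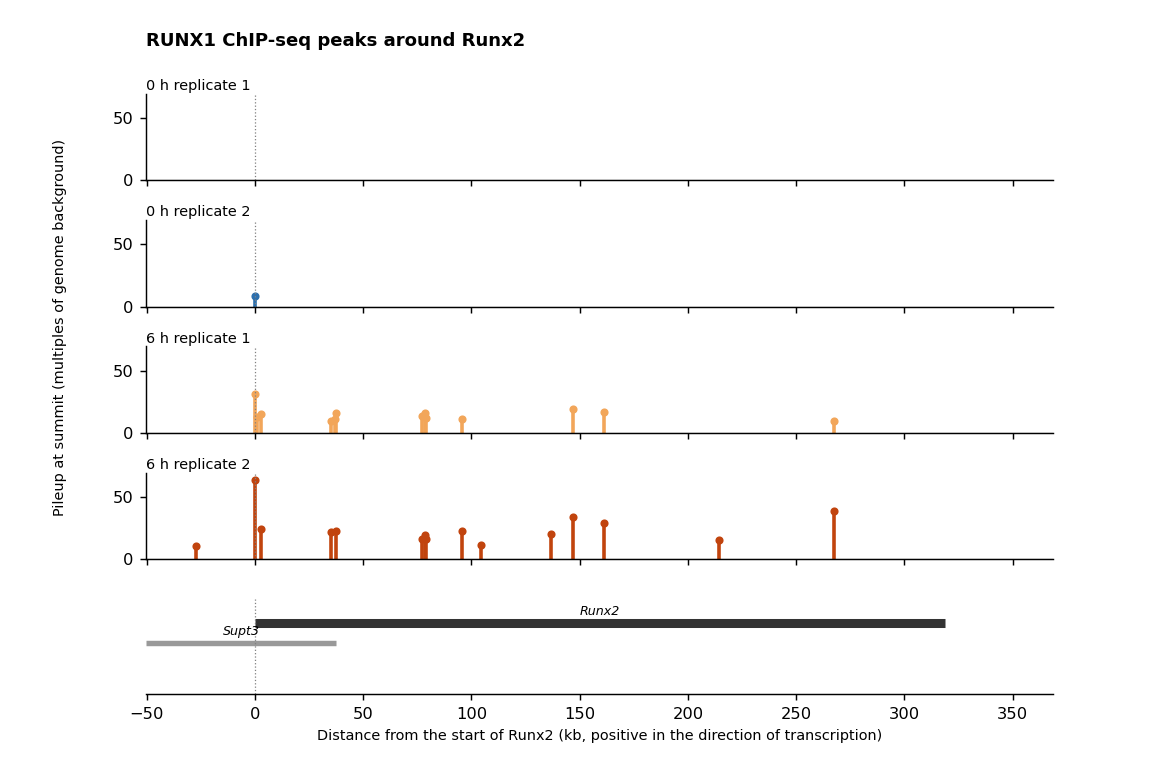
Peaks around Runx2 by library, placed by the distance of the summit from its start in kb, with height the pileup in multiples of the genome background. The 0 h tracks hold a single peak, at the start, while the 6 h tracks hold 13 and 15 peaks, of which 13 and 14 are inside the gene.

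Runx3 had peaks after hCG at its proximal start. The 2 sites lay on either side of that start, with summits 304 and 349 bp before it (positions -304 and -349) and 417 bp after it in 6 h replicate 2. The first (chr4:135151910-135152506) had 16.3 and 25.3 times background in 6 h replicates 1 and 2, and the second (chr4:135152792-135153149) had 12.3 and 17.8. Neither had a peak at 0 h. No peak of any library overlapped the distal Runx3 window with the tandem motif, and the nearest 6 h summits were 31551 and 31596 bp from the distal start. The window of Olfr24, the other one with the tandem motif, was also without a peak, and the nearest summit of any library was 282031 bp away.

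Cbfb was bound at its start. The site (chr8:105170395-105171734) had 17.4 and 39.8 times background in 6 h replicates 1 and 2, with summits 254 and 258 bp downstream of the start, and no 0 h peak. The other 2 sites of the Cbfb window were outside the gene, 83.7 and 89.2 kb from its start. Their strongest summits were nearest to the ends of B3gnt9, at 892 bp, and of Tradd, at 1287 bp. They had 14.1 and 20.2, and 18.1 and 22 times background.

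**Figure D5:**
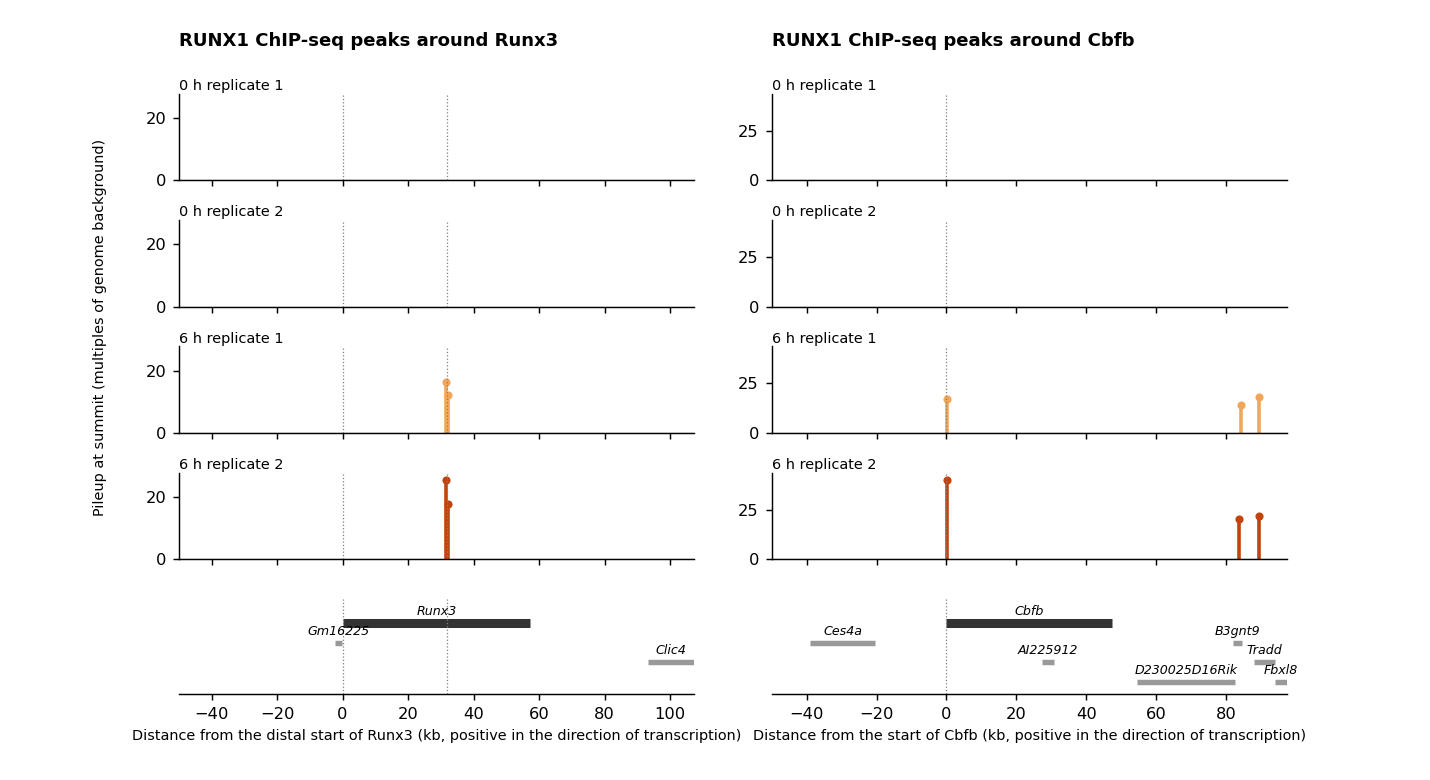
Peaks around Runx3 (left) and Cbfb (right) by library, placed by the distance of the summit from the distal Runx3 start and from the Cbfb start in kb, with height the pileup in multiples of the genome background. Both 0 h tracks are empty, and the Runx3 peaks at 6 h stand at the proximal start, not at the distal one.

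Taken by promoter window, 5 of the 6 windows of the family were overlapped by a peak in both 6 h libraries, where 25.3% of all 32851 windows were, with 25.8% and 31.7% in 6 h replicates 1 and 2 taken singly. In both 0 h libraries 1 of the 6 was overlapped, that of the distal Runx1 start, against 0.935% of all windows. The windows of the proximal Runx1 start and of Runx2 were overlapped in 0 h replicate 2 only. Over all windows the 0 h shares were 0.977% in replicate 1 and 4.96% in replicate 2. The proximal windows of Runx1 and Runx3 and the Cbfb window were overlapped at 6 h and hold no TGTGGT, while the distal Runx3 window holds 2 and was not overlapped. The 6 h summits at these 3 overlapped windows lay outside the 300 bases searched, so the sequence under those summits was not examined here. Across the genome TGTGGT was present in 12% of the windows overlapped in both 6 h libraries and in 18.4% of the others, and TGCGGT in 12.9% and 4.26%. The windows overlapped in both 6 h libraries had a median GC content of 64%, against 52.7% for all windows, and the part of base composition in these shares was not tested.

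Set in order of summed pileup per 100 kb of window, the genes at 6 h were Runx1, Runx2, Cbfb and Runx3. Runx1 had 118 and 161 times background per 100 kb in replicates 1 and 2, Runx2 46.6 and 87.5, Cbfb 33.7 and 55.7 and Runx3 18.2 and 27.4. The values of Runx2 and Cbfb overlap and those of the other neighbours in this order do not. At 0 h Runx1 had 12.2 and 31.5 and Runx2 0 and 2.07. Among all 21887 protein-coding windows, Runx1 stood at percentile 99.7 of summed pileup at 6 h and Runx2 at 97.7, while Cbfb stood at 58.7 and Runx3 at 43.3. The windows of the first pair are long, and by peaks per 100 kb at 6 h the percentiles were 79.8, 76.5, 59.9 and 45.1 in the same order. At 0 h, 10 other protein-coding genes had at least as many peaks as Runx1 in both libraries.

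A peak in every library was found around 8.96% of protein-coding genes, and around Runx1 alone among the 4. The genes whose summed pileup over the 4 libraries was most like that of Runx1, by Euclidean distance of the log2 values plus 1, were Csnk1g2, Scamp4 and Jakmip3. Their distances were 0.27, 0.45 and 0.54. Csnk1g2, a casein kinase gene, had 45.5 and 104.8 times background summed at 0 h and 354.6 and 473.5 at 6 h, beside 39.7, 102.2, 383.2 and 522.7 for Runx1. Scamp4 is its neighbour on chromosome 10, and their windows overlap, so a peak can count for both.

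The cofactors through which RUNX proteins act were examined by a list of 21 genes for acetyltransferases, methyltransferases, corepressors and other regulators of RUNX proteins. Peaks in both 6 h libraries were found around 19 of the 21, where 69.1% of protein-coding genes had them, and peaks in all 4 libraries around 5, where 8.96% had them. The 6 h counts lay above the 0 h counts without overlap for 19 of the 21, against 64.7% of all genes, and below for 0. The median log2 difference in peaks plus 1 was 1.79 for the list and 1.29 for all protein-coding genes. The 5 genes with a peak in every library were Stub1 and Tle1, for a ubiquitin ligase and a Groucho corepressor, Cbfa2t3, for a corepressor of the ETO family, Kmt2a, for a histone methyltransferase, and Crebbp, for a histone acetyltransferase. Cbfa2t3 had 3 and 4 peaks at 0 h and 11 and 13 at 6 h, and Kmt2a had 2 and 4 at 0 h and 6 and 6 at 6 h. Crebbp had 1 and 2 at 0 h and 4 and 5 at 6 h, and Tle1 had 1 and 1 at 0 h and 2 and 5 at 6 h. Stub1 had 2 and 2 at 0 h and 9 and 10 at 6 h, with the highest summed pileup of the list in each 6 h library, 299 and 419 times background. Tle3, another Groucho corepressor and the third of the list by the mean of the 6 h libraries, had 0 and 1 peaks at 0 h and 8 and 15 at 6 h. Prmt6 and Runx1t1 had no peak in 6 h replicate 1. Each window was the gene and 50 kb on either side, so a peak counted here can lie in or nearer to another gene. The parts of window length and of neighbouring genes in these counts were not tested.

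The regions found in both replicates of a time point were compared last. Of the 3 such regions at 0 h, all 3 overlapped one of the 26 at 6 h, which left 23 at 6 h without a counterpart in both 0 h replicates. Over the genome, 95.0% of 847 such 0 h regions overlapped a 6 h region and 95.4% of 17190 such 6 h regions had no 0 h counterpart, so the counts at these genes are near the background. The count rests on 0 h replicate 1, the shortest list: without it, 8 of the 8 peaks of 0 h replicate 2 around these genes overlapped a 6 h region, where 94.7% of all its 3135 peaks did. These 8 are single peaks, not separate places. They lay on the 3 Runx1 sites and the site at the Runx2 start, and 4 of them were at the proximal Runx1 start. When a shared region had to cover 50% of each interval, 0 of 3 remained, against 37.7% of all 847. With summits within 100 bp it was 3 of 3, against 84.8%. The strongest peak of each library at the 3 Runx1 sites was 1198 to 3747 bp wide at 6 h and 200 to 413 bp at 0 h.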

How the data were processed

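The authors' deposited files are 1 peak list per ChIP library. Per the submitters' processing notes, Bowtie2 2.2.5, MACS2 (version not given in the sources used here) and mm10 were used, with an input pooled per time point per the labels. Reads were single-end, 75 nt. The deposited fold enrichment (a ratio), the −log10 p-value and the −log10 q-value are the authors' MACS2 values. The deposited score repeats the −log10 p (times 10, cut to a whole number) and was left aside. The inputs have no list of their own and were not analysed here.

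Pileup and background were solved from fold and −log10 p (misfit at most 0.005 in −log10 p, 100% of peaks). The lowest background of a list is the genome background. The solver was tested on simulated data. Groups came from titles. Tests over libraries are exact two-sided permutations. Genes and promoter sequences are RefSeq GRCm38.p6, and all 4 genes matched. The genome was not used here. The text names the 4 genes, neighbours nearest to a peak, cofactors with a peak in every library or among the 3 highest at 6 h, and the 3 genes most like a member. Gm16225 and Olfr24, which hold the tandem motif, and Prmt6 and Runx1t1, without a peak in 6 h replicate 1, were named after their values were seen. Members and lists were chosen with earlier results of these data known. Alternatives changed the window (gene only, 10 or 100 kb), the peaks used (−log10 q of at least 20, or 948 per library), the libraries, the matching of sites, the added constant (0.5) and the pairing. Python 3.11.15, NumPy 2.4.6, pandas 2.3.3 and SciPy 1.17.1 were used.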

Additional observations from a re-analysis of the deposited data

How the results depend on the processing

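No test here can reach a p below 0.333, so stability was judged by direction. With 948 peaks per library the differences in peaks in the windows and in the share of the list were 0. The number of 0 h regions kept was 0 under the overlap of 50% of both intervals. Leaving out each library in turn gave 1.83 to 3.0 for the peaks in the windows, -1.39 to -0.78 for the share of the list, 2.07 to 2.57 for the site inside Runx1, 2.61 to 3.30 for its proximal start, 2.09 to 2.77 for its distal start, and 3 to 8 regions kept. The 8 were single peaks of 0 h replicate 2, on the 3 Runx1 sites and the site at the Runx2 start. The other alternatives reversed none of these results. With an added constant of 0.5, the difference in peaks was 4.06 at Runx2, 2.32 at Runx3 and 2.81 at Cbfb. At a −log10 q of at least 20 the proximal start gave no value, since 0 h replicate 1 had no peak left there.

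Replicate numbers are shared between time points, but the labels do not say that they pair the libraries. The deviations of same-numbered libraries correlated at -0.20 over 795 sites. With the replicate block the differences are the same (2.42 for the peaks, -1.09 for the share, and 2.32, 2.96 and 2.43 for the sites inside Runx1, at its proximal and at its distal start), and the smallest possible p is 0.5. With the numbers crossed, an alternative chosen after seeing the data, calls at 0.05 were 0, as they were with the block and without it. An exact permutation of 2 against 2 libraries cannot reach 0.05, so these counts say nothing about pairing.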
